A study of Mus musculus with 12 samples.

Results

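The 37 genes described here carry fatty acids into muscle fibres and burn them in mitochondria, from the uptake protein Cd36 to the enzymes of beta-oxidation and the switches that set fuel choice. They were taken from a list of symbols. A gene counted as measured when the platform annotation paired a transcript cluster, the array's unit for 1 gene, with that symbol and no other, and where a gene had several such clusters the one with the highest mean over the 12 arrays was used. On this rule 33 of the 37 genes were measured, among 30412 clusters with exactly 1 symbol. Etfb and Ppard were covered only by clusters that carry several symbols, and Acsl1 and Ucp2 had no named cluster, so these 4 genes were not analysed here.

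RNA came from quadriceps of male utrn+/-;mdx mice on the C57BL/10 background, aged 6 weeks, and each mouse had its own array. Treatment ran from week 4 to week 6 of age. The first group drank prednisolone at 1.5 mg/kg per day, a second ate pellets that held spironolactone (100 mg/kg per day) and lisinopril (20 mg/kg per day), and another ate pellets with eplerenone (200 mg/kg per day) and the same lisinopril dose. The untreated group received normal chow. Each group held 3 mice, called biological replicates in the labels. Every mouse, untreated ones included, carried the mdx mutation of dystrophin and 1 defective copy of the utrophin gene. The series therefore held neither healthy muscle nor a group on pellets without drug, and neither antagonist was given without lisinopril. Prednisolone is a glucocorticoid used in Duchenne muscular dystrophy. Spironolactone and eplerenone block the mineralocorticoid receptor, and lisinopril inhibits the angiotensin-converting enzyme.

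Long-chain fatty acids reach the fibre through lipoprotein lipase and Cd36, are activated to acyl-CoA and cross the inner mitochondrial membrane as carnitine esters. Inside, beta-oxidation removes acetyl-CoA units in repeated rounds of dehydrogenation, hydration, dehydrogenation and thiolysis, and the electrons pass through the electron transfer flavoprotein to the respiratory chain. Malonyl-CoA holds the carnitine step back, and pyruvate dehydrogenase kinases spare glucose while fat is burned. In skeletal muscle these genes are known targets of PPAR receptors and of their coactivators, and several respond to fasting and to glucocorticoids.

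Levels are the deposited log2 signals, on which 1 unit is a 2-fold step, and changes are log2 differences ± SE from a single limma fit to all 12 arrays with n = 3 arrays per group. A gene is said to have risen or fallen only where its adjusted p (Benjamini-Hochberg over the 30412 clusters) was under 0.05. The number of arrays limits the precision, with a median SE of 0.13 per comparison. Array medians lay between 5.70 and 5.81 and arrays of a group correlated at 0.992 to 0.996. Muscle fibre markers such as the actin Acta1 were at the top of the scale (it averaged 19.92 with prednisolone and 19.91 untreated, where the highest value of the table was 19.93), which fits the labelled tissue. In bulk muscle, fewer cells of a type and less RNA per cell cannot be told apart. Arrays that stood apart are taken up after the comparison with untreated muscle.

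Prednisolone against no treatment gave the broadest difference in these genes. Of the 33 measured genes, 16 were higher with prednisolone, 0 were lower and 17 did not pass. Among all tested clusters 3.22% passed as higher and 3.17% as lower. The median difference over the 33 genes was 0.59, against -0.01 over all clusters. Estimates lay above 0 for 30 genes. In 20 genes every prednisolone array lay above every untreated array, as in 13.4% of all clusters. In 1 gene, Ucp3, every prednisolone array lay below, a direction for which the share of all clusters was not counted. By role, 8 of 13 beta-oxidation enzymes, 2 of 4 carnitine shuttle genes, both measured electron transfer genes, 1 of 3 lipid droplet and lipolysis genes and 3 of 8 regulators rose, and 0 of 3 uptake genes. Only 2 genes, Pnpla2 and Pdk4, differed by a fold of at least 2, the cut that the series design names, which 0.523% of all clusters reached as higher, and neither passed the test.

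**Figure D1:**
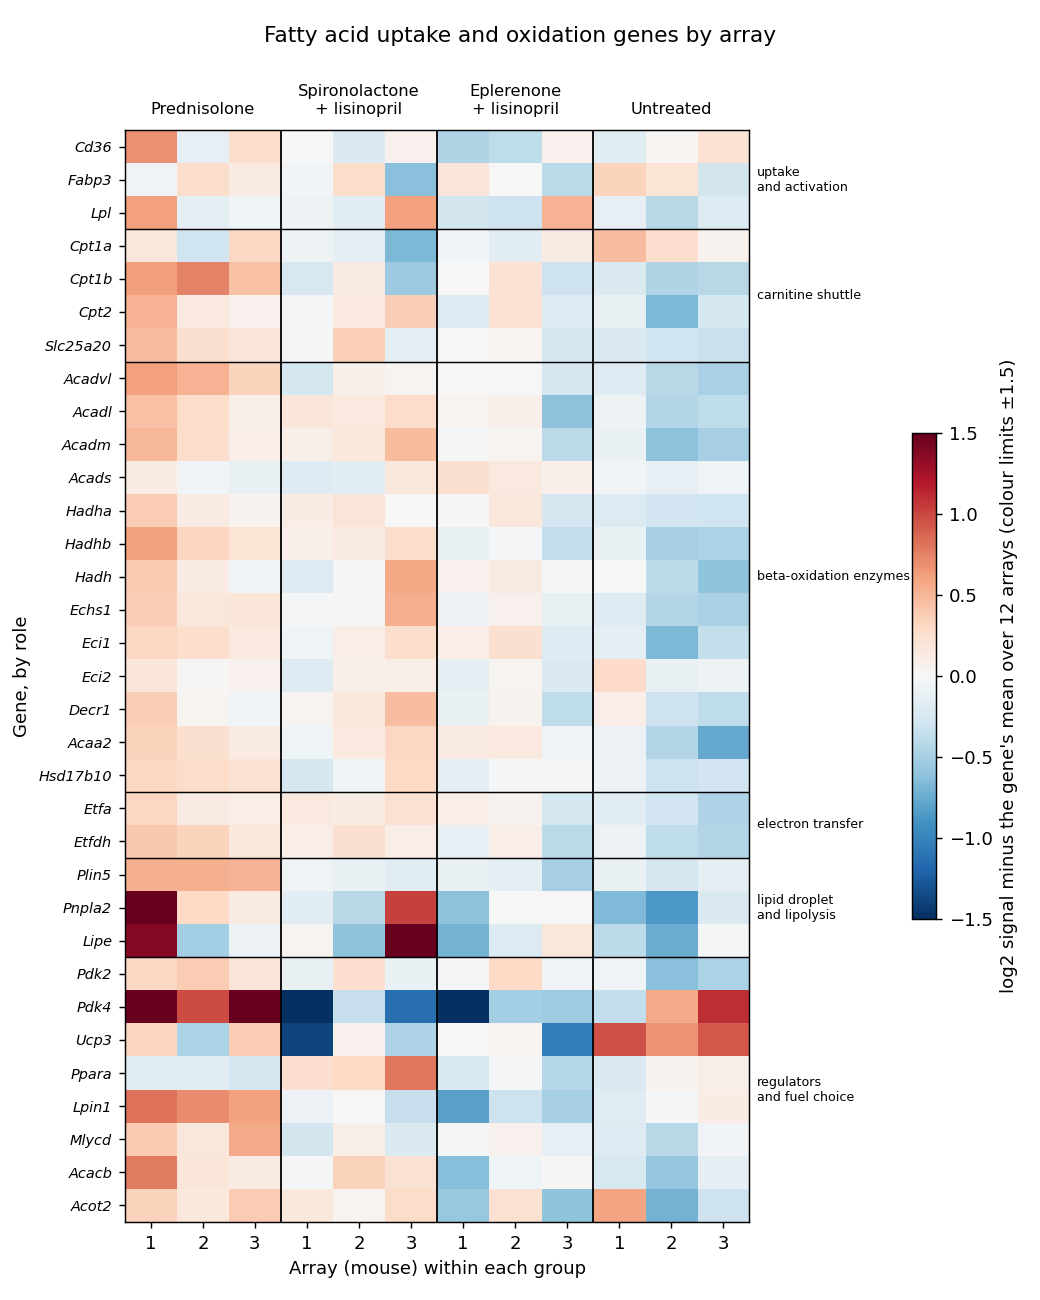
Each cell gives the log2 signal of 1 gene (rows, grouped by role) in 1 array (columns, grouped by treatment), as the deviation from that gene's mean over the 12 arrays, with colours limited to ±1.5. Most rows are red in the 3 prednisolone arrays and blue in untreated arrays 2 and 3, Pdk4 and Ucp3 stand out in their regulator rows, and Pnpla2 and Lipe are darkest in prednisolone array 1 and spironolactone array 3.

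Uptake genes did not pass. Lpl, the lipase that frees fatty acids from circulating lipoproteins, had the smallest p of these genes and measured 14.29, 13.53 and 13.63 with prednisolone, 13.60, 13.51 and 14.29 with the spironolactone combination, 13.40, 13.37 and 14.19 with the eplerenone combination and 13.55, 13.26 and 13.47 in untreated muscle. Its groups overlapped, and prednisolone minus untreated was 0.39 ± 0.28 (limma adjusted p = 0.465). Cd36, the membrane transporter of fatty acids, differed by 0.25 (95% interval -0.20 to 0.69) and Fabp3, the cytosolic carrier of heart and muscle, by 0.03 (-0.49 to 0.55). A second, much dimmer Fabp3 cluster gave -0.19 and did not pass either.

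In the carnitine shuttle Cpt1b and Slc25a20 rose. Cpt1b is the muscle form of the outer-membrane enzyme that makes acylcarnitines, and Cpt1a is the form that predominates in liver. Cpt1b measured 13.00, 13.12 and 12.81 with prednisolone, 12.13, 12.51 and 11.83 with the spironolactone combination, 12.37, 12.59 and 12.06 with the eplerenone combination and 12.15, 11.92 and 11.95 in untreated muscle. All 3 prednisolone arrays lay above the other 9, and the gene rose by 0.97 ± 0.18 (limma adjusted p = 0.0119), a fold of 1.95. Cpt1a measured 11.18, 10.71 and 11.32 with prednisolone, 10.93, 10.88 and 10.34 with the spironolactone combination, 10.97, 10.85 and 11.14 with the eplerenone combination and 11.47, 11.26 and 11.06 in untreated muscle. The prednisolone and untreated ranges of Cpt1a overlapped and it differed by -0.19 ± 0.19 (limma adjusted p = 0.625). Slc25a20, the translocase that exchanges acylcarnitine for carnitine, measured 11.25, 11.03 and 10.97 with prednisolone, 10.77, 11.15 and 10.64 with the spironolactone combination, 10.80, 10.82 and 10.52 with the eplerenone combination and 10.57, 10.49 and 10.45 in untreated muscle. It rose by 0.58 ± 0.14 (limma adjusted p = 0.031), with every prednisolone array above every untreated one, while spironolactone array 2 reached into the prednisolone range. Cpt2, which turns acylcarnitine back into acyl-CoA in the matrix, differed by 0.59 ± 0.18 with no overlap of the groups and missed the threshold (limma adjusted p = 0.0812).

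Among the acyl-CoA dehydrogenases, which take the first step of each round and differ in the chain length they accept, the very long and medium chain enzymes rose. Acadvl, the very long chain enzyme, measured 11.86, 11.77 and 11.57 with prednisolone, 10.97, 11.32 and 11.28 with the spironolactone combination, 11.25, 11.25 and 10.99 with the eplerenone combination and 11.05, 10.83 and 10.76 in untreated muscle. It rose by 0.85 ± 0.13 (limma adjusted p = 0.00526), the smallest adjusted p of the 13 beta-oxidation genes, and the lowest prednisolone array lay above all other arrays. Acadm, the medium chain enzyme, measured 12.86, 12.62 and 12.45 with prednisolone, 12.45, 12.52 and 12.84 with the spironolactone combination, 12.34, 12.40 and 11.97 with the eplerenone combination and 12.26, 11.74 and 11.86 in untreated muscle. It rose by 0.69 ± 0.17 (limma adjusted p = 0.0378), and the spironolactone arrays lay inside the prednisolone range or at its lower edge. Acadl, the long chain enzyme, differed by 0.57 without overlap of the groups and did not pass (limma adjusted p = 0.0843), and Acads, the short chain enzyme, differed by 0.06 (95% interval -0.17 to 0.30).

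Hadha and Hadhb encode the alpha and beta subunits of the trifunctional protein, which carries out the later steps on long chains. The genes lie head to head: in RefSeq (GRCm38.p6) their starts are 273 bases apart on chromosome 5, at 30154980 for Hadha on the minus strand and 30155253 for Hadhb on the plus strand. The 228 bases within this gap that the promoter windows of both genes share, shown because both genes rose and holding neither start, are chr5:30155003-30155230 on the plus strand, in lower case throughout because none of the motifs searched was found in it:
Hadha-Hadhb: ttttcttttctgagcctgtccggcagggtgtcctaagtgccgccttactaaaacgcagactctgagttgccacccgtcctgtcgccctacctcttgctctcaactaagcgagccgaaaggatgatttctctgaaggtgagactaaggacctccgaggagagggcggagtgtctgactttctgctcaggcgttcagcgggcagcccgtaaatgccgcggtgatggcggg
Hadhb measured 13.53, 13.24 and 13.13 with prednisolone, 13.00, 13.04 and 13.19 with the spironolactone combination, 12.81, 12.90 and 12.56 with the eplerenone combination and 12.82, 12.43 and 12.45 in untreated muscle. Hadha measured 13.77, 13.52 and 13.45 with prednisolone, 13.51, 13.59 and 13.39 with the spironolactone combination, 13.41, 13.57 and 13.14 with the eplerenone combination and 13.19, 13.10 and 13.09 in untreated muscle. Both had every prednisolone array above every untreated array. Hadhb rose by 0.73 ± 0.14 (limma adjusted p = 0.0144) and Hadha by 0.45 ± 0.12 (limma adjusted p = 0.0498), at the edge of the threshold.

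Among the matrix enzymes that complete the spiral, Echs1, Eci1, Acaa2 and Hsd17b10 rose. Echs1, the short chain enoyl-CoA hydratase, measured 9.97, 9.78 and 9.79 with prednisolone, 9.58, 9.62 and 10.15 with the spironolactone combination, 9.51, 9.66 and 9.49 with the eplerenone combination and 9.41, 9.16 and 9.11 in untreated muscle. It rose by 0.62 ± 0.15 (limma adjusted p = 0.032), although spironolactone array 3 was the highest of all 12. Eci1, an enoyl-CoA isomerase for unsaturated chains, measured 9.33, 9.28 and 9.16 with prednisolone, 8.95, 9.12 and 9.27 with the spironolactone combination, 9.11, 9.25 and 8.82 with the eplerenone combination and 8.88, 8.34 and 8.65 in untreated muscle. Its rise was 0.63 ± 0.15 (limma adjusted p = 0.0329), and untreated array 2 was the lowest. Acaa2, the mitochondrial thiolase, measured 12.87, 12.76 and 12.65 with prednisolone, 12.46, 12.67 and 12.84 with the spironolactone combination, 12.64, 12.67 and 12.46 with the eplerenone combination and 12.44, 12.09 and 11.76 in untreated muscle. With a rise of 0.66 ± 0.16 (limma adjusted p = 0.0334), its untreated arrays were the most spread of the 4 groups (SD 0.34, n = 3). Hsd17b10, a matrix dehydrogenase that acts on short and branched acyl-CoA, measured 9.32, 9.28 and 9.23 with prednisolone, 8.76, 8.96 and 9.30 with the spironolactone combination, 8.88, 8.98 and 9.03 with the eplerenone combination and 8.94, 8.70 and 8.72 in untreated muscle. It rose by 0.49 ± 0.13 (limma adjusted p = 0.0437), with spironolactone array 3 level with the prednisolone arrays. The remaining enzymes did not pass: Hadh, the short chain hydroxyacyl-CoA dehydrogenase, differed by 0.49, the dienoyl-CoA reductase Decr1 by 0.32 and Eci2 by 0.05.

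Electrons from the acyl-CoA dehydrogenases pass through the flavoprotein of which Etfa is the alpha subunit, and then through Etfdh, the oxidoreductase that hands them to ubiquinone. Etfa measured 12.84, 12.66 and 12.63 with prednisolone, 12.68, 12.64 and 12.76 with the spironolactone combination, 12.64, 12.59 and 12.27 with the eplerenone combination and 12.38, 12.25 and 12.07 in untreated muscle. Etfdh measured 11.07, 10.99 and 10.82 with prednisolone, 10.76, 10.90 and 10.76 with the spironolactone combination, 10.54, 10.76 and 10.26 with the eplerenone combination and 10.57, 10.28 and 10.22 in untreated muscle. In both genes the untreated arrays were lowest on average and did not overlap the prednisolone arrays. Etfa rose by 0.48 ± 0.12 (limma adjusted p = 0.0361) and Etfdh by 0.60 ± 0.14 (limma adjusted p = 0.026).

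Plin5 coats lipid droplets in oxidative tissues and tethers them to mitochondria. It measured 7.45, 7.46 and 7.43 with prednisolone, 6.86, 6.82 and 6.76 with the spironolactone combination, 6.81, 6.78 and 6.43 with the eplerenone combination and 6.82, 6.67 and 6.79 in untreated muscle. The 3 prednisolone arrays were almost level (SD 0.01, n = 3) and far above the other 9, and Plin5 rose by 0.69 ± 0.10 (limma adjusted p = 0.00509). Pnpla2, the triglyceride lipase that starts lipolysis, had the largest estimate of the 33 genes, 1.22 ± 0.42, with no overlap and an adjusted p of 0.113 in limma. Lipe, the hormone-sensitive lipase, differed by 0.64 ± 0.57 (limma adjusted p = 0.583). Both were highest in prednisolone array 1 (14.60 for Pnpla2 and 9.94 for Lipe) and spironolactone array 3 (14.14 for Pnpla2 and 10.23 for Lipe).

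Of the regulators, 3 rose. Lpin1, a phosphatidate phosphatase that also acts as a transcriptional coactivator with PPAR alpha, measured 13.10, 13.01 and 12.90 with prednisolone, 12.21, 12.30 and 11.95 with the spironolactone combination, 11.48, 11.98 and 11.79 with the eplerenone combination and 12.11, 12.27 and 12.41 in untreated muscle. Every prednisolone array exceeded all others, and it rose by 0.74 ± 0.14 (limma adjusted p = 0.0132). Mlycd, which degrades malonyl-CoA, measured 7.42, 7.19 and 7.59 with prednisolone, 6.75, 7.12 and 6.81 with the spironolactone combination, 6.99, 7.09 and 6.90 with the eplerenone combination and 6.83, 6.61 and 6.98 in untreated muscle. Its rise was 0.59 ± 0.14 (limma adjusted p = 0.0293), and a second, dimmer Mlycd cluster gave 0.16 and did not pass. Acacb, which makes the malonyl-CoA that Mlycd removes, differed by 0.68 ± 0.21 without overlap and did not pass (limma adjusted p = 0.0849). Ppara, the fatty acid receptor of the PPAR family, differed by -0.18, and Acot2, a mitochondrial acyl-CoA thioesterase with close paralogues that share sequence, by 0.44.

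Pyruvate dehydrogenase kinases shut off glucose oxidation, and both measured isoforms had positive estimates. Pdk2, the broadly expressed isoform, measured 14.90, 14.98 and 14.79 with prednisolone, 14.48, 14.84 and 14.50 with the spironolactone combination, 14.58, 14.90 and 14.54 with the eplerenone combination and 14.54, 13.97 and 14.11 in untreated muscle. It rose by 0.68 ± 0.16 (limma adjusted p = 0.0313). Pdk4, the isoform induced by fasting and glucocorticoids, measured 17.86, 16.86 and 17.76 with prednisolone, 13.75, 15.53 and 14.75 with the spironolactone combination, 14.36, 15.36 and 15.35 with the eplerenone combination and 15.51, 16.44 and 16.98 in untreated muscle. The prednisolone and untreated ranges of Pdk4 overlapped between 16.86 and 16.98, and the difference of 1.18 ± 0.49 did not pass (limma adjusted p = 0.194). Ucp3, the uncoupling protein of muscle mitochondria, measured 10.78, 9.99 and 10.84 with prednisolone, 9.07, 10.52 and 10.00 with the spironolactone combination, 10.45, 10.50 and 9.42 with the eplerenone combination and 11.43, 11.14 and 11.38 in untreated muscle. It was lower than untreated in every treated array, and with prednisolone the estimate was -0.78 ± 0.38 (limma adjusted p = 0.267).

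**Figure D2:**
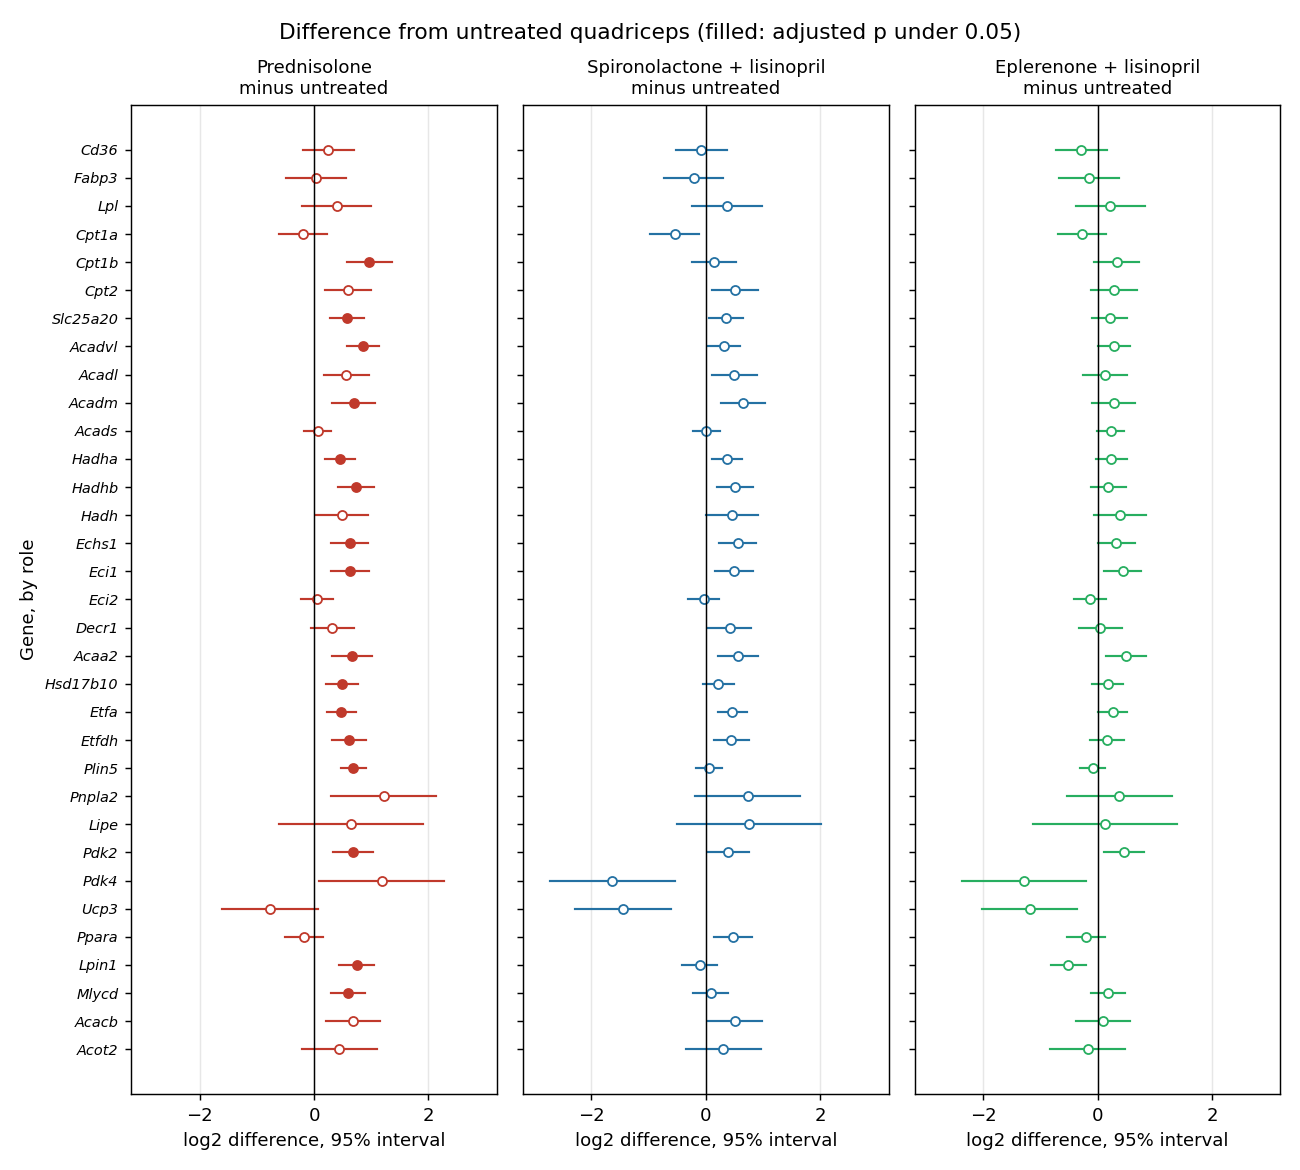
Points give the log2 difference from untreated for each gene (rows, by role) with its 95% interval, for prednisolone, the spironolactone combination and the eplerenone combination in 3 panels, and filled points passed the adjusted threshold. All 16 filled points are in the prednisolone panel and lie above 0, while Pdk4 lies to the right of 0 with prednisolone and to the left with both combinations.

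How far these rises rest on single arrays was measured directly. Neutrophil markers (8 genes) were high in 2 of the 3 untreated mice: their mean deviation from the 12-array mean was 2.41 and 2.20 in untreated arrays 2 and 3, against -0.11 in untreated array 1, and it lay between -0.51 and -0.26 with prednisolone. Beta-oxidation enzymes were lowest in the same 2 arrays (mean deviation -0.39 and -0.40, against -0.06 in untreated array 1). Without arrays 2 and 3, which left 1 untreated array, the median over the 33 genes was 0.38. That fit assumes that a lone untreated array varies like the other groups, so its count past the threshold is not used. The estimates then were 0.82 for Cpt1b, 0.68 for Acadvl, 0.63 for Plin5 and 0.89 for Lpin1, against 0.97, 0.85, 0.69 and 0.74 with all arrays. Hadhb was then 0.48 against 0.73, Acaa2 0.32 against 0.66, Pdk2 0.34 against 0.68, Acadm 0.39 against 0.69 and Eci1 0.38 against 0.63. Pdk4 was 1.98 against 1.18. The sign changed for Acot2 (-0.30 against 0.44), Eci2 (-0.20 against 0.05), Fabp3 (-0.22 against 0.03) and Ppara (0.01 against -0.18). Against untreated, 2 of 8 neutrophil markers (Hdc and Retnlg) and 4 of 12 macrophage markers fell with prednisolone. The macrophage marker Cd14 also fell with the spironolactone combination (-1.76) and the eplerenone combination (-1.79). With both combinations all 8 neutrophil estimates lay below 0 (medians -1.39 and -1.86, against -2.01 with prednisolone). So did all 12 macrophage estimates (medians -0.52 and -0.34, against -0.68 with prednisolone). Of the fibroblast markers 2 of 6 fell with prednisolone, the collagens Col1a1 (-0.66) and Col1a2 (-0.39). Of the endothelial markers 1 of 9 fell with prednisolone, the cadherin Cdh5 (-1.48), with a median of -0.60 over the endothelial list. Col1a1 was also lower with prednisolone than with the spironolactone combination (-0.62) and the eplerenone combination (-0.84), and so was Col1a2 (-0.42 and -0.59). Beyond the values without arrays 2 and 3 the part of these cell types in the differences of the fatty acid genes was not tested.

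Adipocyte markers (9 measured genes) stood out in 2 other arrays, prednisolone array 1 (mean deviation 1.24) and spironolactone array 3 (2.73). In the remaining 10 arrays they lay between -1.17 and 0.53. Against untreated muscle all 9 adipocyte estimates lay above 0 with each treatment, and 0 passed. Their medians were 1.190 with prednisolone, 1.596 with the spironolactone combination and 0.556 with the eplerenone combination. Beyond the values without the 2 high arrays, the part of adipocyte content in the rises was not tested. The brightest marker, Fabp4, weighs most in a summed level and averaged 14.59 with prednisolone and 14.50 untreated. The summed adipocyte level ran from 14.27 to 16.39 with prednisolone, from 14.42 to 17.16 with the spironolactone combination, from 14.52 to 15.20 with the eplerenone combination and from 14.31 to 15.07 untreated, on the log2 scale, with no marker at 0. Without these 2 arrays the estimates were 0.08 for Lipe, 0.15 for Lpl, 0.04 for Cd36 and 0.79 for Pnpla2, all genes that adipocytes also express. Then 4 of 33 genes rose, Cpt1b (0.96), Acadvl (0.79), Plin5 (0.68) and Echs1 (0.56). The other rises no longer passed. Among them Lpin1 at 0.69, Pdk2 at 0.67, Mlycd at 0.58, Etfdh at 0.55 and Hsd17b10 at 0.47 had estimates close to those with all arrays. Lower estimates were found for Hadhb (0.62, against 0.73 with all arrays), Acadm (0.59 against 0.69), Hadha (0.36 against 0.45) and Slc25a20 (0.50 against 0.58). Of the skeletal muscle fibre markers 0 of 12 passed against untreated muscle, with all 12 estimates above 0 and a median of 0.13. Several of them, such as Acta1 and Myh4 at 19.92 over the 12 arrays, lay near the top of the array's scale, where little rise could be measured. Myh2, the myosin of fast oxidative fibres, averaged 16.98 with prednisolone and 16.39 untreated. Of the slow fibre markers 0 of 8 passed, with a median of 0.37, and the part of fibre content in the rises was not tested.

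**Figure D3:**
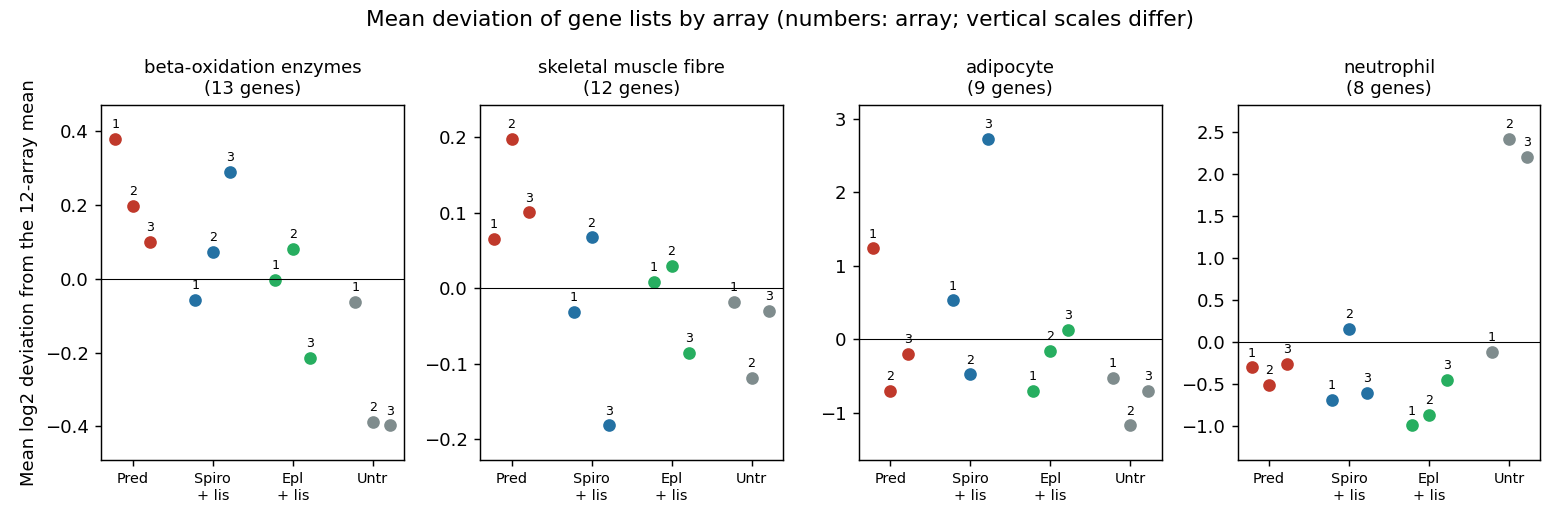
Points give the mean log2 deviation of a gene list from its 12-array mean in each array, for beta-oxidation enzymes, skeletal muscle fibre markers, adipocyte markers and neutrophil markers, with groups along the horizontal axis, array numbers above the points and a vertical scale of its own in each panel. Beta-oxidation enzymes are lowest in untreated arrays 2 and 3, where neutrophil markers reach 2.41 and 2.20, and adipocyte markers peak in spironolactone array 3 at 2.73.

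Leaving out 1 array at a time left between 3 and 16 of the 33 genes past the threshold, with 3 without prednisolone array 1, 3 without prednisolone array 2, 8 without prednisolone array 3, 4 without untreated array 2 and 5 without untreated array 3. The 24 alternative settings include the fit with 1 untreated array, whose calls are not read. Acadvl and Plin5 passed in 23 settings, which are all those with more than 1 untreated array. Cpt1b passed in 22 and Lpin1 in 20, whereas Hadha passed in 6 and Hsd17b10 in 10. No estimate of these 6 genes changed sign.

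No fatty acid gene passed the threshold against untreated muscle with either combination. With spironolactone and lisinopril 0 of 33 passed, beside 0.0822% of all clusters, and with eplerenone and lisinopril 0 of 33 passed, beside 0.0296%. At an unadjusted p under 0.05 in limma, 16 genes were higher and 3 lower with the spironolactone combination, where 16.2% of all clusters reached that level in either direction. With the eplerenone combination 6 were higher and 3 lower, against 13.4% of all clusters. Median differences were 0.37 with spironolactone and 0.19 with eplerenone, against -0.04 and -0.03 over all clusters, and these comparisons share the untreated arrays with each other and with prednisolone. Every array lay above every untreated array in 13 genes with spironolactone (7.35% of all clusters) and in 3 with eplerenone, Acads, Echs1 and Acaa2 (7.7% of all clusters). Without untreated arrays 2 and 3 the medians were 0.14 and 0.02.

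With spironolactone and lisinopril the lipases Lipe (0.75) and Pnpla2 (0.73) had the largest positive estimates, both being highest in array 3 of that group. Without the 2 arrays high in adipocyte markers, of which that array is 1, Lipe differed by 0.10 and Pnpla2 by 0.29, below Acadm at 0.53. With spironolactone and lisinopril Acadm differed by 0.65 (limma adjusted p = 0.167), Acaa2 by 0.56, Echs1 by 0.56, Hadhb by 0.51 and Etfa by 0.46 (limma adjusted p = 0.157). When untreated array 1 was left out, 2 genes, Acaa2 and Acadm, rose with this combination. With eplerenone and lisinopril the largest positive estimates were 0.50 for Acaa2 and 0.46 for Pdk2, neither past the threshold (limma adjusted p = 0.258 and 0.274).

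The largest negative estimates were in regulators and Cpt1a. Pdk4, whose values are given above, differed by -1.63 with the spironolactone combination (95% interval -2.72 to -0.54, limma adjusted p = 0.192) and by -1.29 with the eplerenone combination (-2.38 to -0.20, limma adjusted p = 0.308). Ucp3 differed by -1.45 (-2.29 to -0.61) and -1.19 (-2.03 to -0.35) in the same order, with every array of both combinations below every untreated array. Cpt1a with spironolactone (-0.55), and Pdk4 and Lpin1 (-0.51) with eplerenone, likewise lay below every untreated array without passing. The share of all clusters with every treated array below every untreated array was not counted.

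Prednisolone and the combinations were then compared directly. Against spironolactone and lisinopril 3 of 33 genes were higher with prednisolone, Plin5, Pdk4 and Lpin1, beside 0.372% of all clusters. Against eplerenone and lisinopril 2 were higher, Plin5 and Lpin1, beside 0.233%. No fatty acid gene was lower with prednisolone in either comparison. The medians were 0.16 and 0.37, and both comparisons share the prednisolone arrays. A limma F-test across the 4 groups passed for 4 genes, Acadvl, Plin5, Pdk4 and Lpin1, and for 1.93% of all clusters.

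Pdk4 showed the widest gap. Its 3 prednisolone values of 16.86 to 17.86 lay above all 6 combination values of 13.75 to 15.53. Prednisolone minus spironolactone and lisinopril was 2.82 ± 0.49 (limma adjusted p = 0.0345), a fold of 7.04, and prednisolone minus eplerenone and lisinopril was 2.47 ± 0.49 (limma adjusted p = 0.0559), just outside the threshold. Lpin1 was 0.85 ± 0.14 above the spironolactone combination (limma adjusted p = 0.0273) and 1.25 ± 0.14 above the eplerenone combination (limma adjusted p = 0.00479). Plin5 was 0.63 ± 0.10 above the spironolactone combination (limma adjusted p = 0.0257) and 0.77 ± 0.10 above the eplerenone combination (limma adjusted p = 0.0101). Of these calls, Lpin1 against eplerenone passed in 24 of 24 alternatives, Plin5 against eplerenone in 20, and the 3 against spironolactone in 14 or 15. The count against spironolactone was 0 without prednisolone array 1 or 2, without spironolactone array 1 or 3, or without the 2 arrays high in adipocyte markers, and 1 without spironolactone array 2. Against eplerenone it was 1 without prednisolone array 1, without prednisolone array 2 or without those 2 arrays.

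**Figure D4:**
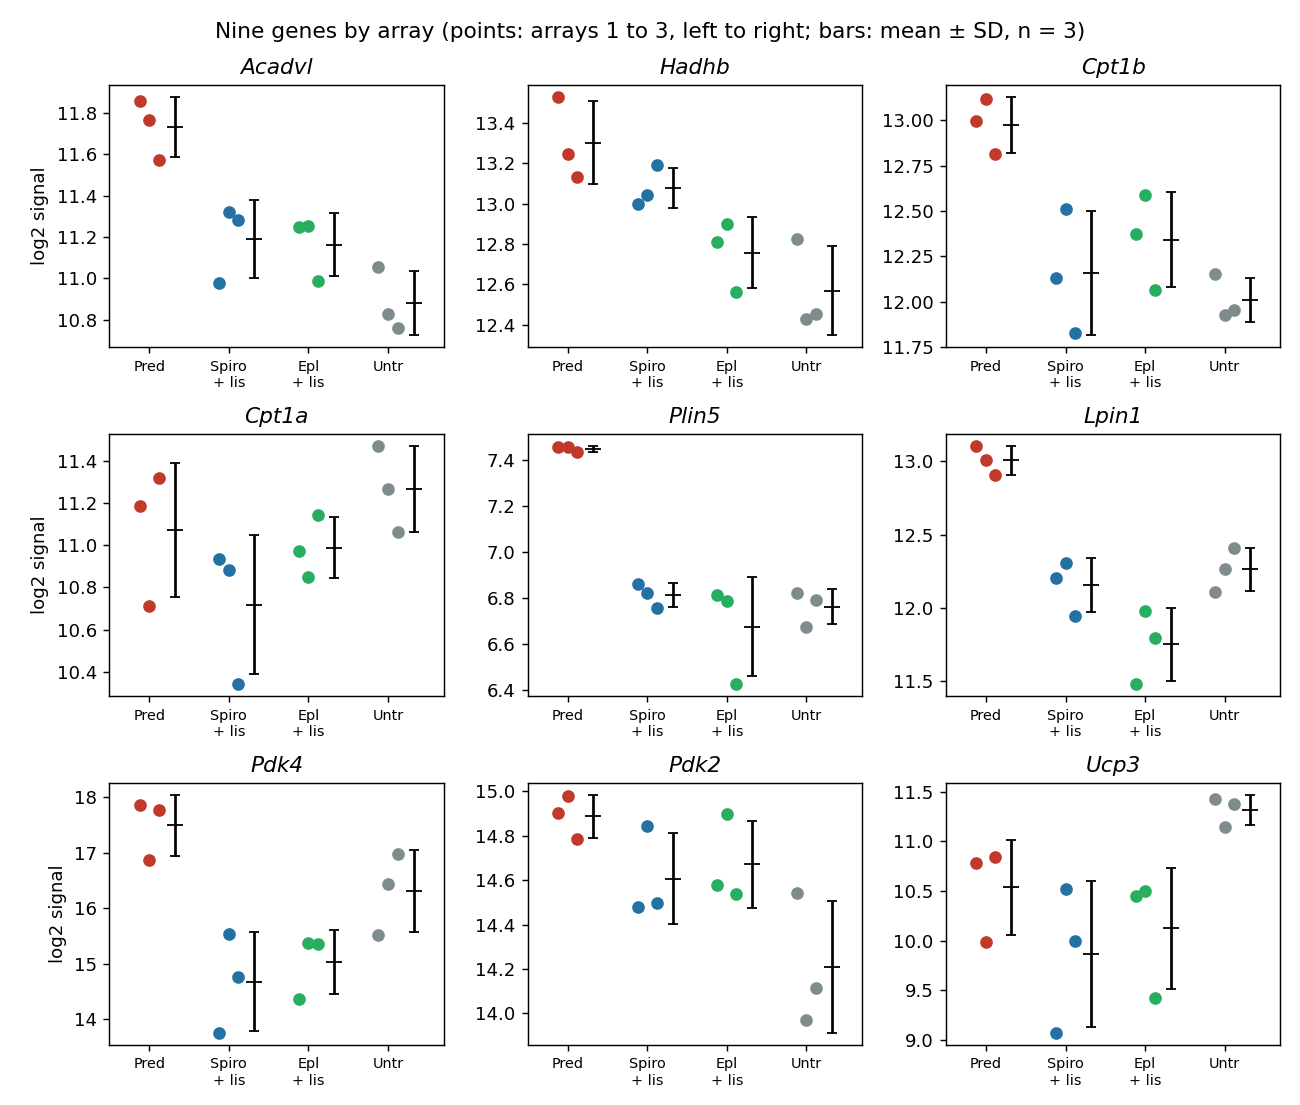
Log2 signal of 9 genes in each array, with groups along the horizontal axis (Pred, prednisolone; Spiro + lis, spironolactone and lisinopril; Epl + lis, eplerenone and lisinopril; Untr, untreated), points for arrays 1 to 3 and bars for the mean ± SD (n = 3). Plin5 and Lpin1 are apart from all other arrays with prednisolone, Pdk4 is lowest with the combinations, and Ucp3 is highest in untreated muscle.

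Bases before a RefSeq start of each of these 3 genes are shown because they were the members that passed the test between prednisolone and a combination. Each sequence holds the 250 bases before the start used by a RefSeq promoter window, on the gene's own strand (GRCm38.p6). Capitals mark any half-site AGGTCA, the unit that PPAR and related receptors bind, on either strand. They also mark AGAACA, the unit of the glucocorticoid response element, on either strand. Pdk4 is at chr6:5496279-5496528 on the minus strand, Plin5 at chr17:56117549-56117798 on the minus strand (the upstream one of its 2 RefSeq windows) and Lpin1 at chr12:16610967-16611216 on the minus strand.
Pdk4: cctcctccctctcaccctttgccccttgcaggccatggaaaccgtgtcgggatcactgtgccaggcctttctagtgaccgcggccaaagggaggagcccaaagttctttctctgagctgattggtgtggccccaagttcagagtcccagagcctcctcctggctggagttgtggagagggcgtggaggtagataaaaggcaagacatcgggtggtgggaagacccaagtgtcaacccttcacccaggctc
Plin5: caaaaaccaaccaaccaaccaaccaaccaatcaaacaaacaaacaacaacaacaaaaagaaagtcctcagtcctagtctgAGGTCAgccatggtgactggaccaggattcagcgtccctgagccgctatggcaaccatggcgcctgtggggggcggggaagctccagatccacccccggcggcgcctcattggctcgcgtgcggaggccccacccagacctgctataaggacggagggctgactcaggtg
Lpin1: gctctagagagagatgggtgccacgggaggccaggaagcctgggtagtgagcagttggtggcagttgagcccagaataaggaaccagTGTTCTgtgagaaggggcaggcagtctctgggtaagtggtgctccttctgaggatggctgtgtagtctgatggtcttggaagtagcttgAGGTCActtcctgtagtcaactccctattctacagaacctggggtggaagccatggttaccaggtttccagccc
The Pdk4 stretch held neither half-site, and the Plin5 stretch held AGGTCA at -170. The Lpin1 stretch held AGGTCA at -74 and AGAACA, read on the other strand as TGTTCT, at -163. Positions count to the first base from the start used by the window. For Lpin1 that start is internal, since the gene spans chr12:16535669-16653903 and the stretch lies inside it. Plin5 spans chr17:56111597-56117606, so its stretch partly overlaps the gene. No full motif (AGGTCA repeated with a spacer of 1 base, TNAAGGTCA, or AGAACA and TGTTCT around a spacer of 3 bases, both strands) was found in the 32 windows, each reaching from 250 bases before to 50 after a start, that RefSeq gave for 29 measured genes, and 0.0396%, 1.28% and 0.00913% of all 32851 windows held them. The half-site AGGTCA, searched after the full motifs had given no match, was in 10 of the 32 windows (31.2%, against 16.3% of all windows) and AGAACA in 3 (9.38%, against 19% of all windows). These 6-base matches describe the letters in the windows and are not binding sites. The median GC content was 60.7% in the 32 windows and 52.7% in all windows.

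Other members separated the treatments less firmly. Cpt1b was 0.82 ± 0.18 above the spironolactone combination (limma adjusted p = 0.059) and 0.63 ± 0.18 above the eplerenone combination (limma adjusted p = 0.154). Acadvl was 0.54 and 0.57 above them (limma adjusted p = 0.0754 and 0.082). Ppara went the other way against the spironolactone combination, with a difference of -0.65 (limma adjusted p = 0.0754). All its prednisolone arrays lay below all spironolactone arrays. In Cpt1b, Acadvl and Mlycd, all prednisolone arrays lay above all arrays of both combinations. Several beta-oxidation and electron transfer genes had small differences between prednisolone and the spironolactone combination, such as Etfa at 0.02 (95% interval -0.24 to 0.27), Acadm at 0.04 (-0.34 to 0.42) and Hadha at 0.08 (-0.18 to 0.35), so that a difference up to the end of each interval remains possible.

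The antagonists share a mechanism but were given at different doses (spironolactone at 100 and eplerenone at 200 mg/kg per day), so their values are set side by side as regimens. Spironolactone and lisinopril minus eplerenone and lisinopril passed for 0 of 33 genes and 0% of all clusters. At an unadjusted p under 0.05 in limma 3 genes were higher with spironolactone and 0 lower, where 4.49% of all clusters reached that level. Ppara had the largest difference, 0.67 (95% interval 0.34 to 1.01, limma adjusted p = 0.998), with values of 6.58, 6.64 and 7.13 in the spironolactone arrays and 6.11, 6.32 and 5.90 in the eplerenone arrays. Lpin1 (0.40) and Hadhb (0.32) were the other two. The median over the 33 genes was 0.14.

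Genes around the pathway were counted from 6 further lists, of which 105 of 115 genes were measured. With prednisolone 22 rose and 3 fell, beside 3.22% and 3.17% of all clusters, with a median of 0.35. With either combination 0 passed, beside 0.0822% with spironolactone and 0.0296% with eplerenone. All 21 tricarboxylic acid cycle estimates lay above 0 with each treatment, against the same untreated arrays. Their medians were 0.43 with prednisolone, 0.32 with spironolactone and 0.32 with eplerenone. Other acyl-CoA and ketone enzymes held 8 rises of 17, among them Ivd (0.92) and Acadsb (0.66), dehydrogenases of branched amino acid breakdown, and Acss2 (0.78), which activates acetate. The tricarboxylic acid cycle held 5 of 21, with citrate synthase Cs at 0.67 and the isocitrate dehydrogenase subunits Idh3g and Idh3a at 0.64 each. In transport and activation 2 of 14 rose, the lipoprotein receptor Vldlr (0.77) and the carnitine acetyltransferase Crat (0.69), and in peroxisomal oxidation 1 of 12, the oxidase Acox3 (0.41). Synthesis and storage gave 3 rises and 2 falls of 21, Plin3 (0.62), Gpam (0.52) and Agpat3 (0.40) higher and Elovl5 (-0.71) and Lpin2 (-0.38) lower. Among 20 further regulators the retinoid receptor Rxrg (1.26), the coactivator Ppargc1b (0.76) and Pdpr (0.60), a subunit of pyruvate dehydrogenase phosphatase, rose, and Nrip1 (-1.36), a corepressor of oxidative genes, fell. Directly against the spironolactone combination 1 of the 105 was higher with prednisolone, the droplet coat protein Plin3 (0.80), beside 0.372% of all clusters, and against the eplerenone combination 2 were, the ketone body enzyme Bdh1 (0.81) and Plin3 (0.63), beside 0.233%.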

How the data were processed

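Quadriceps RNA of 12 mice was hybridised to single-channel Affymetrix arrays after linear amplification, per the labels' protocols. The authors deposited log2 values from RMA, and the submitters' processing notes name Affymetrix Expression Console and the Transcriptome Analysis Console as software, without versions. Genome build and annotation release were not given in the sources used here. Of the 65587 clusters, 1.27% to 1.34% in each array exceed 16, more than a 16-bit scanner can give as log2, which means that a rescaling step is unstated and that folds hold on the deposited scale only. Background and detection values were not used here.

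Clusters were named through the platform's probe table, repeated entries of 1 symbol counting as 1, and 827 symbols were updated through the gene ID. Left out of the tests were 2118 clusters with several symbols and 33057 without one. The means of the 4 groups were estimated in 1 model with limma 3.58.1 under R 4.3.3 (8 residual and 2.94 prior degrees of freedom), with 6 pairwise comparisons, eBayes without trend, two-sided tests and Benjamini-Hochberg adjustment over 30412 clusters at 0.05. The code was tested on simulated data. An exact test of 3 against 3 arrays cannot go below 0.1. The genes, lists and alternatives were chosen with earlier results of these data known. Values in every array are given for genes past the threshold in any comparison, for the gene with the smallest p in a role without one, and for the isoform pairs. Further genes of a list are named up to 3 per direction, and Bdh1 and Plin3 as the only calls between treatments. Arrays of the same replicate number correlated at -0.24 to 0.16 in their deviations from the group means (4 of 18 pairs over 0.1), so the numbers were not taken as pairs. Alternatives covered normalization, filtering, variance prior, array weights, clusters tested, the choice of cluster, a replicate block and left-out arrays. Those without 2 arrays were chosen after seeing the data. Sequences are from RefSeq (GRCm38.p6).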

Additional observations from a re-analysis of the deposited data

How the results depend on the processing

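With 3 arrays per group, several counts depended on the setting. For prednisolone minus untreated (16 genes), the count was 8 when all 65587 clusters were tested and 10 with a replicate block. It was 5 with only the 2 groups compared and 3 to 16 with 1 array left out. Without the 2 arrays high in adipocyte markers it was 4. Counts without untreated arrays 2 and 3 are not given, because 1 untreated array was left. Quantile normalization, equal array medians, a filter on dim clusters and an intensity trend gave 15 to 17. So did robust eBayes, array weights and the mean of a gene's clusters. For prednisolone minus the spironolactone combination (3), it was 6 with the filter on dim clusters, 6 with array weights, 0 over all clusters, 1 with the replicate block, 0 with only the 2 groups, 0 to 3 with 1 array left out and 0 without the 2 adipocyte-high arrays. For prednisolone minus the eplerenone combination (2), it was 4 with the filter, 4 with array weights, 1 with only the 2 groups, 1 to 3 with 1 array left out and 1 without the 2 adipocyte-high arrays. The F-test (4) gave 2 over all clusters, 0 to 10 with 1 array left out and 0 without the 2 adipocyte-high arrays. Spironolactone minus untreated (0) gave 0 to 2 with 1 array left out, and the other two comparisons gave 0 in every alternative. The replicate block moved no other count by over 1.5 times. The share of all clusters that passed in each alternative is not given, so the changes in count are not read as particular to these genes. The cause of these changes in count was not tested. Over the 33 genes in all 6 comparisons, 160 values lost and 16 gained the threshold, and 0 changed direction while past it. These totals include the fit with 1 untreated array.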
